A study of Rattus norvegicus with 3 samples.

Results

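The denervated rat soleus was compared with the normal soleus, a slow postural muscle of the calf, by messenger RNA. The comparison takes 2 of the 3 arrays of the study, 1 per group, chosen by the source names of the samples. The strain is given as Wistar Honnover, and all rats were males aged 12 weeks. Total RNA was labelled with Cy3 and measured on one-colour Agilent arrays. The denervated array held soleus taken 28 days after the sciatic nerve of the left side had been transected, over about 5 mm, in the gluteal region. The normal soleus and the normal plantaris, a faster calf muscle whose levels are given only for orientation, came from control rats that received no treatment. The array of the normal soleus carries only the title Post, so its group rests on the source name. The labels do not state the number of animals that an array stands for. Because each group is a single array, no replicate or test exists, and every difference describes these arrays only.

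Skeletal muscle fibres are kept in their adult state by the motor nerve. In an innervated fibre, acetylcholine receptors are clustered under the nerve ending and the genes for them are transcribed mainly by the nuclei there, while slow fibres depend on tonic nerve activity for their oxidative metabolism and slow contractile proteins. When the nerve is lost, fibres are known to spread receptors and embryonic channels over the whole membrane, to waste, and to send signals that attract nerve sprouts.

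Levels are log2 signals relative to the 75th percentile of the same array, so a level of 0 is the signal that 75 percent of the spots do not exceed. Differences are denervated minus normal soleus in log2 units, 1 unit being 2-fold. The error after ± comes from the scanner software and covers the measurement of the spots only. Where a gene was above background on 1 array only, its fold was taken against a dim signal and is marked by "at least". This is a limit only under the background correction used here, and another correction can make it smaller. Levels are compared between arrays for 1 probe and never between genes. A value headed normexp is the same difference under another background correction, given where that takes it below 2-fold or makes it over 1.5 times smaller.

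Of 11318 genes compared, 988 (8.73%) were at least 2-fold higher in the denervated soleus and 1518 (13.4%) at least 2-fold lower, 22.1% in all, and these shares are the background for every list below. The median gene stood at 0.02, with quartiles of -0.51 and 0.46, and 77.9% of genes lay within 2-fold. Differences of at least 16-fold were seen for 28 genes on the high side and 30 on the low side. The 2830 brightest genes leaned low, with 104 higher and 424 lower, against 470 higher and 524 lower among the 2830 dimmest. Between 64.2% and 67.0% of 30367 probes were well above background on each array, and no spot was saturated.

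How the arrays are set on 1 scale changes the balance of the sides. Of the genes at least 2-fold apart, 39.4% were higher with the centring used here, 26.8% with the normexp background correction, 53.8% with the arrays scaled on their spike-in controls and 58.6% in the values the authors deposited. The median of all genes moved up by 0.12 with the percentile taken over detected probes, by 0.19 with the spike-in scaling and by 0.24 in the deposited values. The 8 spike-in control probes themselves differed by -0.39 to 0.23 between the soleus arrays, with a mean of -0.19. The 2 soleus arrays lie on different slides, so slide, scan and denervation cannot be told apart. Of 75 genes that were higher and had a second measured probe, 65 had the same sign on it and 43 (57.3%) were at least 2-fold higher there too. Of 173 lower genes with a second probe, 147 had the same sign and 88 (50.9%) were at least 2-fold lower.

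**Figure D1:**
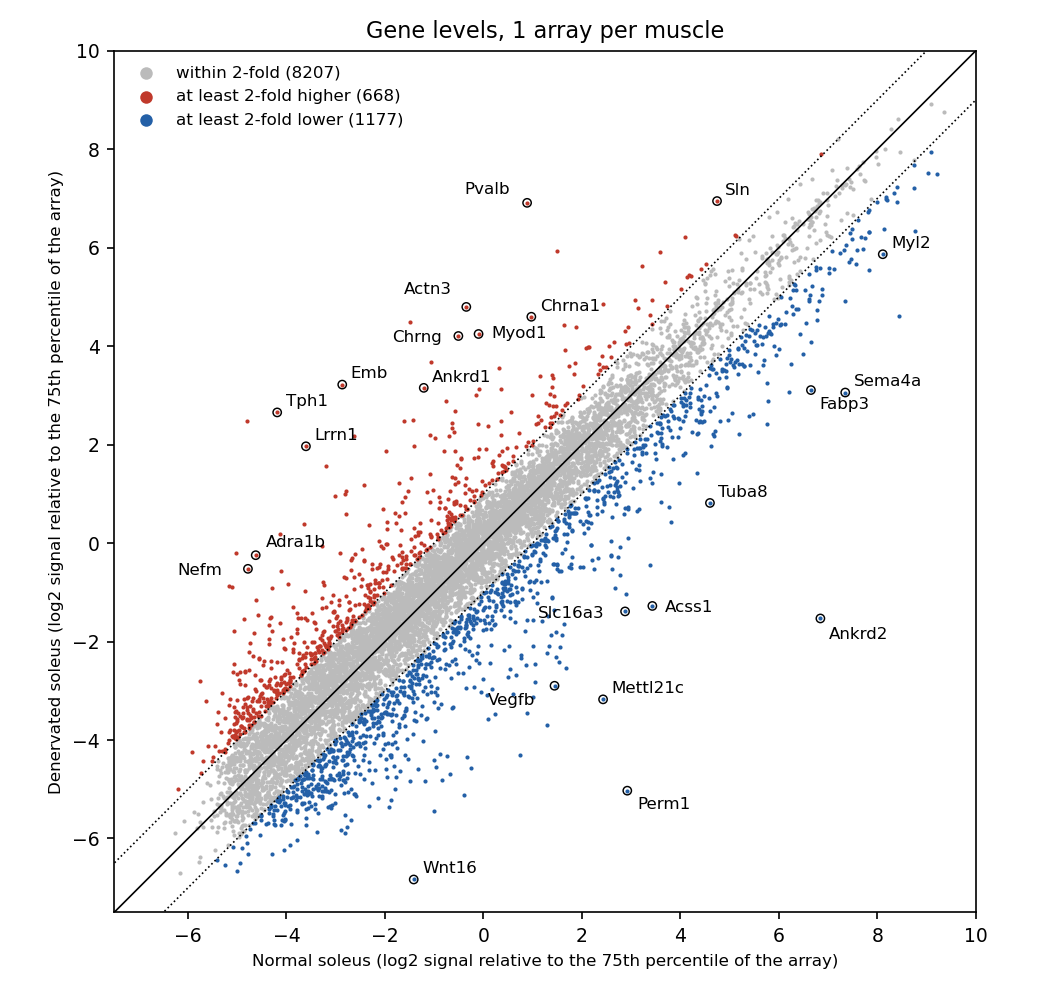
Level of each gene measured on both soleus arrays, with the normal soleus on the x axis and the denervated soleus on the y axis, both as log2 signal relative to the 75th percentile of the array. The solid line marks equal levels, the dotted lines 2-fold, and circles mark genes named in the text. Of these genes 668 lie above the upper dotted line and 1177 below the lower one.

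The labels were first set against genes known to respond to nerve loss and against genes of slow muscle. Of 12 denervation markers 11 were at least 2-fold higher in the denervated soleus (median 2.51), and Ampd3, an AMP deaminase, was the exception at -0.50. These markers were chosen because they are known to respond, and the earlier results were known, so the count checks the label and is no finding. Of 10 slow soleus markers 9 were lower (median -1.52), among them Casq2, the calsequestrin of slow and cardiac fibres, at -2.98, and the ventricular myosin light chain Myl2 at -2.24. Troponin Tnnt1 was at -0.60. The slow markers still stood high on the denervated array, Myh7, the slow myosin heavy chain, at 7.53 against 9.03 in the normal soleus and 6.41 in plantaris, a difference of -0.77 under quantile normalization. In whole muscle, fewer fibres of a type and less RNA per fibre cannot be told apart.

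General muscle genes were uneven. Of 11 compared, 5 were at least 2-fold lower and 0 higher (median -0.35). Acta1, skeletal actin, was at -2.44 ± 0.20, and the Z-disc protein Myot at -2.17 ± 0.20. Mb, myoglobin, was at -0.18 and Cacng1, a subunit of the muscle calcium channel, at -0.33. Sarcomeric actin and the oxygen store thus gave unlike values.

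Fast fibre genes did not share a direction. Pvalb, Actn3, Myh1 and Myh4 stood between the normal soleus and the plantaris, while Atp2a1, Aqp4 and Rxrg were below the normal soleus. Pvalb, the calcium buffer parvalbumin, was at 0.89 in the normal soleus, 6.91 in the denervated soleus and 9.09 in plantaris, a difference of 6.02 ± 0.20. Actn3, the actinin of fast Z-discs, was at -0.35, 4.80 and 9.24 on the same arrays. Myh1, the IIx myosin heavy chain, was at 1.5, 5.93 and 8.88. On the log2 scale the denervated soleus lay nearer to the plantaris than to the normal soleus for all 3 genes. Myh4, the IIb heavy chain, differed less: 0.66, 1.96 and 7.88, which leaves the denervated muscle far below the plantaris. Myh2, the IIa heavy chain, was at -0.52 (-0.05 under quantile normalization). Myh3, the embryonic heavy chain, was higher by 1.5 ± 0.20 and by 1.65 on a second probe, and Myh8, the perinatal chain, stood at -0.51 (0.27 under quantile normalization). Myosin heavy chain genes are similar in sequence, so their probes may share signal. Of the small peptides that hold back the calcium pump, Sln was higher by 2.20 and Pln by 1.11, while the pump gene of slow fibres, Atp2a2, was at -1.75 and -1.47 on its probes. The pump gene of fast fibres, Atp2a1, was at -0.85 (-0.34 under quantile normalization).

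The neuromuscular junction genes did not share a direction, also within a role. Of 17 compared, 9 were at least 2-fold higher, 3 were lower and the median was 1.1 (0.33 under normexp). The list shares Chrna1, Chrnd, Chrng and Musk with the denervation markers. Members outside the naming rule are given here to complete the list.

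The muscle acetylcholine receptor is built of subunits, with the gamma subunit in fetal and denervated muscle and the epsilon subunit at the adult synapse. Chrng, the gamma subunit, stood at -0.51 in the normal soleus, 4.21 in the denervated soleus and -2.0 in plantaris, 26.3-fold higher after denervation. Chrna1, the alpha subunit that binds acetylcholine, was at 0.97, 4.60 and -0.62, 12.3-fold higher. Chrnb1, the beta subunit, went from 2.08 to 3.96 (plantaris 2.47). Both alpha and gamma were high on the denervated array alone. Chrnd, the delta subunit, was at 1.34 and 2.45, a smaller difference of 1.1 ± 0.20, with -1.82 in plantaris. Chrne, the epsilon subunit, was at -1.70, -1.94 and -1.94, apart by about its measurement error (-0.24 ± 0.21). Of the normal muscles, the soleus was the higher for the alpha, gamma and delta subunits.

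Promoter sequences of the receptor subunits and of Myog, the muscle regulator myogenin, are shown because members of this group stood high together and because myogenic regulators are known to bind the E-box CANNTG. Each is the 250 bases before the gene start in RefSeq on build GRCr8, printed 5′ to 3′ along the gene, with E-box matches in capitals. CANNTG reads as an E-box on both strands.
Chrng (chr9:95325734-95325983, plus strand): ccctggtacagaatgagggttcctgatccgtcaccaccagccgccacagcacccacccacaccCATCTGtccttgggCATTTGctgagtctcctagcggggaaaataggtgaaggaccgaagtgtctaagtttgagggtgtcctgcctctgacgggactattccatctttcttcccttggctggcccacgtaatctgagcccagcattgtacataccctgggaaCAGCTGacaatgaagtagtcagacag
Chrna1 (chr3:78877354-78877603, minus strand): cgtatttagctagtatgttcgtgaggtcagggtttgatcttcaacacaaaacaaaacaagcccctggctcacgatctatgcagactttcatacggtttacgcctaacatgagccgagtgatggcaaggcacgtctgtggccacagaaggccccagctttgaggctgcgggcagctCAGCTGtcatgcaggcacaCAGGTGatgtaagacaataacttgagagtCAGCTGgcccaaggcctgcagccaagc
Chrnb1 (chr10:55015108-55015357, minus strand): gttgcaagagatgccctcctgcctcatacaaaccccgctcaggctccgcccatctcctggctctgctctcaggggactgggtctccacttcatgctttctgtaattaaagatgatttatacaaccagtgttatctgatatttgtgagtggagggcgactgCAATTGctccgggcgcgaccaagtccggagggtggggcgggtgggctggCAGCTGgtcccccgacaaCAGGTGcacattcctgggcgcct
Chrnd (chr9:95310066-95310315, plus strand): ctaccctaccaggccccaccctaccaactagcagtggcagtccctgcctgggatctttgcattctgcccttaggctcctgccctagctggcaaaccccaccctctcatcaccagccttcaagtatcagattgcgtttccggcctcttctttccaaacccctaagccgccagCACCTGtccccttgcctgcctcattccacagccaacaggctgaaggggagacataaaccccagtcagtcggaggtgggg
Chrne (chr10:55834155-55834404, minus strand): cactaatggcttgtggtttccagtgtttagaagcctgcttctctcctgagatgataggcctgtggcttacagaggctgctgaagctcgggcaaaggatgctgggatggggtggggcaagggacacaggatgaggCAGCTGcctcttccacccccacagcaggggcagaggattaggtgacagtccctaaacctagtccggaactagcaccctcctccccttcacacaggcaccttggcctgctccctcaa
Myog (chr13:48297226-48297475, plus strand): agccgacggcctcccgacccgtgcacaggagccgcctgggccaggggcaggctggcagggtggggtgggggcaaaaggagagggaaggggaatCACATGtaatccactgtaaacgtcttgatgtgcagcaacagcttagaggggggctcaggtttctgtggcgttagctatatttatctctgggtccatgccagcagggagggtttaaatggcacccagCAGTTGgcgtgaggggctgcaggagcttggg

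Chrng, Chrna1 and Chrnb1 held 3 E-boxes each in this window. Chrnd and Chrne held 1 each and Myog 2. Whether the number of E-boxes goes with the difference of a gene was not tested. The form CAGCTG, looked at after the values were known, occurred in Chrng, Chrna1 (2 matches), Chrnb1 and Chrne. Matches are common: 65.5% of 33469 promoters of this length held CANNTG and 12.0% held CAGCTG. Among genes of the comparison, CANNTG was in 62.1% of 813 promoters of higher genes, 62.7% of 1271 of lower genes and 57.0% of 7620 within 2-fold. CAGCTG was in 14.9%, 12.7% and 12.0% of the same promoters. Of 8 denervation markers with a promoter in the table, 6 held CANNTG. A match is a description of the letters and not a site in use.

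The proteins that cluster the receptor did not share a direction. Lrp4, the receptor for the nerve's agrin signal, was at -3.90 in the normal and -1.91 in the denervated soleus, higher by 1.99 ± 0.23 (normexp 1.21). Musk, the kinase it activates, was not above background in the normal soleus and was higher by at least 1.61 (normexp 0.33). Rapsn, the scaffold under the receptor, was higher by 1.19, and Utrn, the synaptic relative of dystrophin, by 1.20 and by 0.98 on a second probe. Dok7, the adaptor that activates Musk from inside the fibre, went the other way, from 1.1 to -1.01, at -2.11 ± 0.20. Agrn was level at 0.03.

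The neuregulin receptors also parted. Erbb2 was at -2.79 in the normal soleus, 0.59 in the denervated soleus and -3.63 in plantaris, a difference of 3.38 ± 0.21 with 3.77 on a second probe. The mean over the Erbb2 probes, bounds included, was 2.67. Erbb3, its partner, was above background in the normal soleus only and was at least 6.17-fold lower (log2 -2.63, normexp -1.0). In the synaptic cleft, Colq, the collagen tail that anchors acetylcholinesterase, was at -0.52 and -2.64, a difference of -2.13 ± 0.21. Ache, the enzyme, was at -0.48.

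**Figure D2:**
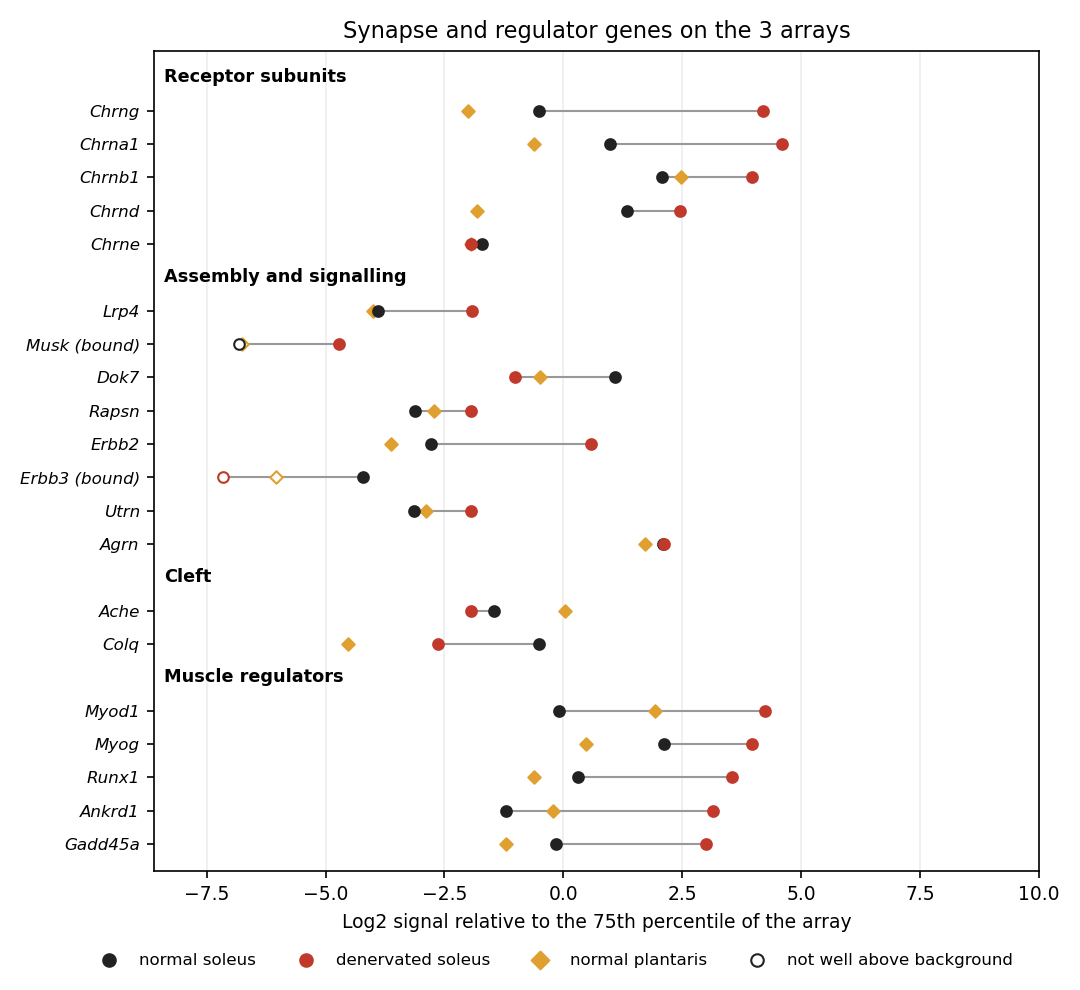
Level of synapse genes and muscle regulators on the normal soleus, denervated soleus and normal plantaris arrays, as log2 signal relative to the 75th percentile of each array, 1 array per point. Open symbols were not well above background. The alpha, beta and gamma receptor subunits, Erbb2 and the regulators lie to the right on the denervated array, and Dok7 and Colq lie to the left.

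Myod1, a myogenic factor typical of fast muscle, was at -0.10 in the normal soleus, 4.25 in the denervated soleus and 1.93 in plantaris, higher by 4.34 ± 0.20. Myog was at 2.12, 3.98 and 0.49. Runx1, a transcription factor known from denervated muscle, was at 0.32, 3.55 and -0.61. All 3 were highest on the denervated array. Ankrd1, a titin-binding repeat protein, was higher by 4.37 ± 0.20, and its relative Ankrd2, a stretch-responsive protein of slow fibres, was at 6.84, -1.53 and 2.56, 332-fold lower. The related genes thus lay in opposite directions. Id2 and Id4, inhibitors of myogenic factors, were higher by 2.25 and 2.07 (normexp 0.78 for Id4). Gadd45a, a growth arrest gene known to be high in denervated muscle, was higher by 3.16.

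Of 25 neurotrophic and guidance genes, 7 were higher, 3 were lower and the median was 0.41 (0.06 under normexp). Fgf7, a growth factor, was at -3.63 in both normal muscles and -0.97 in the denervated soleus, a difference of 2.66 ± 0.24. Sema3b, a semaphorin, was higher by 1.23. Ncam1, an adhesion protein of denervated fibres, was higher by 1.09 ± 0.22 (normexp 0.58). Gfra1, the binding receptor for the factor Gdnf, was higher by at least 1.61 (normexp 0.35), while its signalling partner Ret was at -1.37 (normexp -0.77). Ntf4, a neurotrophin of active muscle, was above background in the normal soleus and plantaris but not in the denervated soleus, at least 4.17-fold lower (log2 -2.06, normexp -0.88). Gdnf itself was not analysed here.

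Tph1, Nefm, Lrrn1, Emb and Ctxn3 were among the 20 largest differences on the high side. Tph1, tryptophan hydroxylase of serotonin synthesis, was at -4.19 in the normal soleus, 2.65 in the denervated soleus and -4.14 in plantaris, and its 2 probes gave 6.84 and 5.79. Nefm, a neurofilament of axons, was at -4.78 and -0.52, higher by 4.26 ± 0.32 (normexp 2.71), and was not above background in plantaris. Lrrn1, a neuronal leucine-rich repeat protein, was at -3.60, 1.97 and -4.78, higher by 5.57. These genes were low in both normal muscles and bright in the denervated one. Emb, an adhesion protein, was 68.0-fold higher, from -2.87 to 3.22, and Ctxn3, cortexin, was higher by 5.99. Below the 20 and chosen after their values were seen, Sncg, gamma-synuclein, was higher by 4.08, the neurotrophic factor Artn by 3.98 and the adhesion protein Cntn2 by 3.85.

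Other axon and neuron markers did not follow Nefm. Of 10 compared, 2 were higher, 2 were lower and the median was -0.17. Gap43, of growing axons, was at -0.36, Snap25, of nerve endings, was above background in the normal soleus only, at least 4.6-fold lower (log2 -2.2, normexp -1.26), and Tubb3, a neuronal tubulin, was at -1.31 (normexp -0.87). Stmn2 gave 1.02 on 1 probe (normexp 0.37) and -0.55 on another. Nefl was above background in the denervated soleus only, too faintly for a fold. The part of nerve tissue in these values was not tested.

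Of 22 voltage-gated channel genes, 8 were at least 2-fold lower, 3 higher and the median was -0.52. Kcna7, a potassium channel of muscle, was at 2.94 in the normal soleus, 0.11 in the denervated soleus and 3.83 in plantaris. Scn4b, a sodium channel beta subunit, was at 3.98, 1.23 and 3.88. Both were low on the denervated array alone. Kcnma1, the calcium-gated BK channel, gave -2.25, -1.83 and -0.21 on its 3 probes. On the high side Kcnn3, the SK3 channel known from denervated muscle, was higher by 1.38 ± 0.20 and Kcnc4 by 2.17 ± 0.23. Scn4a, the adult muscle sodium channel, was at -0.61.

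Of 23 pump, ion and water transport genes, 5 were lower, 2 higher and the median was -0.40. Aqp4, the water channel of fast fibre membranes, was at -3.40 and -1.63 on its probes, and Aqp7, a glycerol channel, at -2.80. Atp1b4, a muscle protein related to sodium pump beta subunits, was at -2.99. In contrast Slc12a2, the sodium, potassium and chloride cotransporter, was higher by 2.96 and 2.64 on its probes, and Fxyd6, a sodium pump regulator, by 2.42 and 1.92. Of 8 carbonic anhydrases 2 were higher, 3 lower and the median was -0.16. Car14, a membrane form, was at 1.30, -2.23 and 1.86 on the normal soleus, denervated soleus and plantaris arrays, and Car3, the abundant form of slow muscle, was at -0.24 (0.28 under quantile normalization). On the high side Car5b, a mitochondrial form, was above background in the denervated soleus only, higher by at least 1.72 (normexp 0.51), and Car11 was higher by 1.05.

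Among 25 adrenergic and cyclic AMP genes, 6 were higher and 3 lower, with a median of 0.02. Adra1b, an alpha1 adrenergic receptor, was at -4.62 in the normal soleus, -0.25 in the denervated soleus and -4.84 in plantaris, higher by 4.38 ± 0.28. Adcy2, an adenylyl cyclase, was higher by 2.39, and Prkar2b, a regulatory subunit of protein kinase A, by 2.37. Its paralogue Prkar2a was at -1.27 (normexp -0.97), and the phosphodiesterase Pde4d at -1.77 and -1.89 on its probes.

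Of 21 Wnt genes, 6 were higher, 4 lower and the median was 0.25 (0.00 under normexp). Wnt16, a ligand, was at -1.42 in the normal soleus, -6.83 in the denervated soleus and -1.18 in plantaris (-5.42 ± 1.06, normexp -2.82). Its denervated level lay at about the faintest level of any probe well above background on that array, -6.83. Fzd9, a receptor, was at 0.24, -3.47 and -2.73. The secreted inhibitor Sfrp2 was higher by 1.90, whereas Sfrp5 was at -1.77 and -1.28 on its probes. Ccn4, a Wnt target, was higher by 1.77.

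Of 31 BMP and TGF-beta genes 10 were higher, 1 was lower and the median was 0.44 (0.26 under normexp). The ligands Bmp2 and Tgfb3 were higher by 1.5 and 1.62, and Ltbp1, which holds latent TGF-beta in the matrix, by 2.02 (normexp 1.28). Grem1, which blocks BMPs, was above background in the normal soleus only and at least 22.8-fold lower (log2 -4.51, normexp -2.12). Fst, follistatin, an inhibitor of myostatin and activin, was higher by 2.86. Of 15 imprinted genes, 4 were higher, 0 lower and the median was 0.68. Nnat, neuronatin, was at -0.57 in both normal muscles and 2.68 in the denervated soleus. Dio3, the enzyme that inactivates thyroid hormone, was higher by 2.19 (normexp 1.05), and H19, a long non-coding RNA of growing muscle, by 1.06 (1.78 under quantile normalization).

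Of 54 lists, that of pyruvate, lactate and ketone body use had the lowest median, -1.62. Of its 18 genes, 14 were at least 2-fold lower and 1 was higher. Mpc1 and Mpc2, the subunits of the mitochondrial pyruvate carrier, were at -2.56 and -1.89. Slc16a3, the lactate exporter of glycolytic fibres, was at 2.88 in the normal soleus, -1.39 in the denervated soleus and 6.23 in plantaris, 19.2-fold lower. Ldhb, the lactate dehydrogenase subunit of oxidative tissue, was at 6.89, 5.15 and 4.66. The exporter was thus below both normal muscles, and Ldhb lay between them. Bdh1 and Oxct1, which burn ketone bodies, were at least 28.6-fold lower (log2 -4.84, normexp -2.49) and at -2.44. Pdk4, the kinase that blocks pyruvate oxidation, was at -1.79, and Pdk3, its paralogue, was higher by 1.43 (normexp 0.44). Acss1, mitochondrial acetyl-CoA synthetase and not on the list, was at 3.43, -1.28 and 1.80.

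Of 19 genes of lipid droplets and triglyceride turnover 8 were lower, 1 was higher and the median was -0.72. Fabp3, the fatty acid carrier of the fibre, was at 6.65 in the normal soleus, 3.11 in the denervated soleus and 4.85 in plantaris. Cd36, the fatty acid transporter, was at -1.39 and -1.28 on its probes, Plin5, of droplets next to mitochondria, at -2.17, G0s2, a lipase inhibitor, at -2.61, and Gpam, of triglyceride synthesis, at -2.18. Vegfb, a growth factor tied to fatty acid uptake and not on the list, was at 1.44, -2.90 and 1.13.

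Of 25 genes for coenzyme Q, haem and iron-sulphur clusters, 7 were lower, 1 higher and the median was -0.61, led by Coq8a at -2.90 and Alas1, the first enzyme of haem synthesis, at -2.33. Of 23 genes of import and genome upkeep, 8 were lower and 0 higher (median -0.67), among them Timm23, the inner membrane channel, at -1.52 with -1.46 and -1.44 on its other probes. Of 17 fusion, fission and mitophagy genes, 3 were lower and 0 higher (median -0.46), with Mtfp1, a fission protein, at -3.04 and the fusion protein Mfn1 at -1.48. Of 17 genes of branched-chain amino acid breakdown, 4 were lower and 0 higher (median -0.53).

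Perm1, a muscle partner of the coactivator PGC-1alpha and of oestrogen-related receptors, was at 2.92 in the normal soleus, -5.03 in the denervated soleus and 2.69 in plantaris, 247-fold lower on its single probe, which has 1 spot per array. Esrra, an oestrogen-related receptor, was at 3.99, 2.33 and 4.04. Both genes were alike in the normal muscles and low in the denervated one. Ppargc1a, PGC-1alpha itself, was at -0.19, within its measurement error. Ppara, a receptor for fatty acids, was at -1.42, and Rxrg, its fast-muscle partner, at -2.20. Of 26 hormone and nuclear receptors, 7 were lower and 1 higher, with a median of 0.00. Nr4a1, an activity-induced receptor, was at -2.77, and Nr4a2 at -2.22 and -1.54 on its probes. The 1 on the high side was Pparg, the adipocyte receptor, by 1.70.

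The Perm1 promoter is shown because this gene had the second largest difference on the low side and belongs to the oestrogen-related receptor pathway. The capitals mark the receptor core motif AAGGTCA, read on the opposite strand, in the 250 bases before the gene start in RefSeq on GRCr8.
Perm1 (chr5:172081999-172082248, plus strand): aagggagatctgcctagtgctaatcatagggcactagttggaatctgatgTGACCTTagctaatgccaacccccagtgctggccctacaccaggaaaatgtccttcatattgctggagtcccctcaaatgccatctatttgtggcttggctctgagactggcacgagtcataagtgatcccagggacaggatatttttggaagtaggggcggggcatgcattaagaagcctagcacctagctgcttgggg

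The longer motif TNAAGGTCA, searched on both strands, was in 0 of 105 promoters of the energy lists and in 1.04% of 33469 promoters. The shorter AAGGTCA, added after the values were seen, was in 4 of 105 (3.81%) and in 3.99% of all promoters. Among genes of the comparison, AAGGTCA was in 3.20% of promoters of higher genes, 4.25% of lower genes and 2.47% within 2-fold. The energy genes are not set apart from all promoters in this window. Their share of AAGGTCA lay above that of genes within 2-fold and below that of lower genes, and these differences were not tested.

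**Figure D3:**
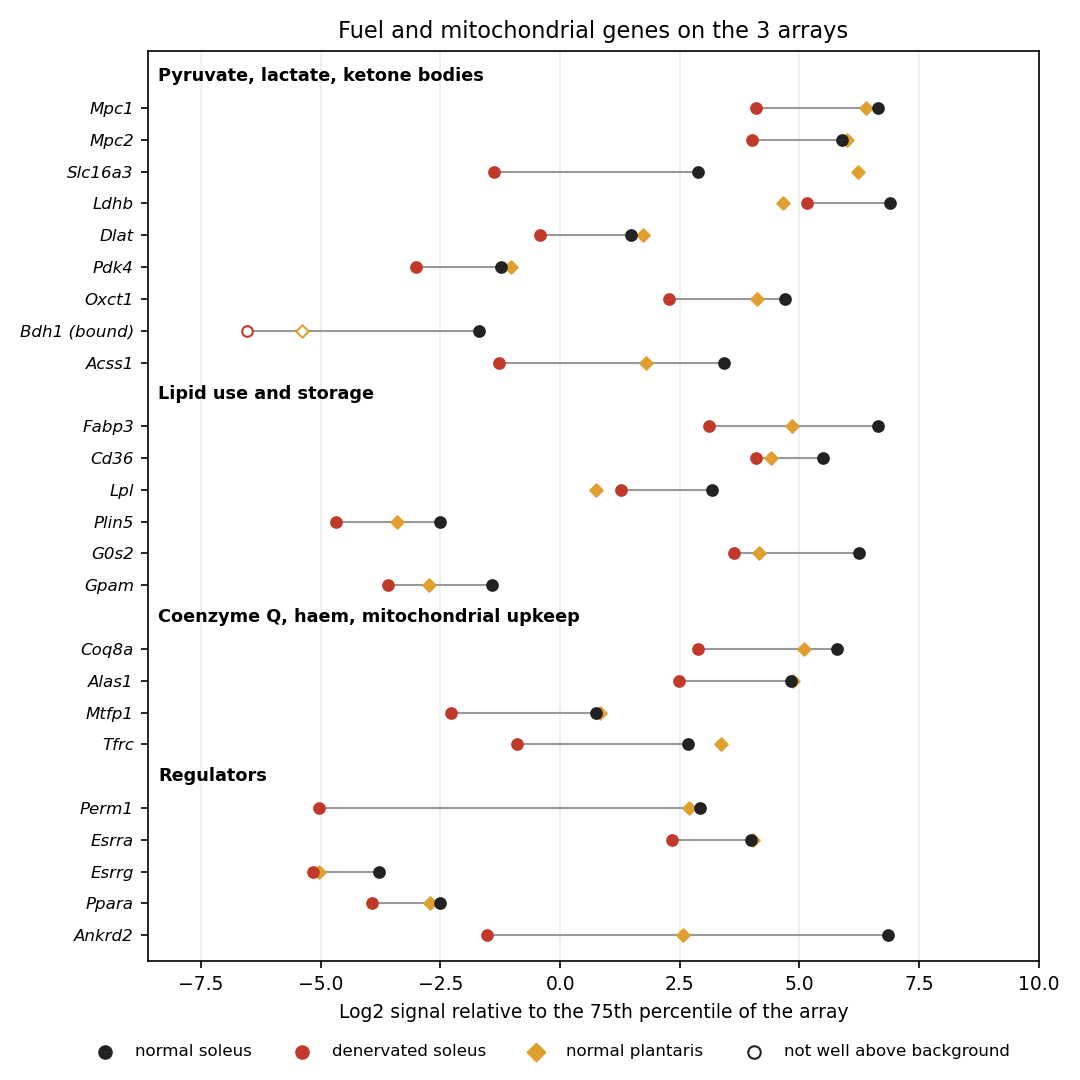
Level of fuel and mitochondrial genes, their regulators and the stretch-responsive gene Ankrd2 on the 3 arrays, 1 array per point. Levels are log2 signals relative to the 75th percentile of each array. Open symbols were not well above background. The denervated soleus lies to the left of the normal soleus for every gene plotted, farthest for Ankrd2 and Perm1. The genes were picked for the plot, and list members on the high side, such as Pdk3, are not drawn.

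Iron and redox genes were mixed. Among 15 iron genes, 2 were higher and 2 lower (median 0.09). Tfrc, the transferrin receptor that brings iron in, was at -3.58 and -3.78 on its probes, while Cp, ceruloplasmin, and Slc40a1, ferroportin, which let iron out, were higher by 2.49 and 1.68, with 1.87 and 1.37 on second probes. Of 31 antioxidant genes, 6 were higher, 4 lower and the median was -0.01. Gpx1, an intracellular glutathione peroxidase, was at -2.42, and Gpx3, the secreted one, was higher by 1.84. Prdx5, a mitochondrial peroxidase, was at -1.51. The metallothioneins Mt1, Mt2A and Mt3 were higher by 1.85, 1.15 and 1.52, and Gsta3, a glutathione transferase, by 2.50.

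Genes of the cytoskeleton were mixed. Tuba8, a muscle tubulin, was at 4.60 in the normal soleus, 0.81 in the denervated soleus and 6.08 in plantaris, and Tppp3, which binds microtubules, was at 5.48, 2.62 and 4.37. The general tubulin Tuba1b was higher by 1.15 and 1.0 on its probes. Of 23 tubulin and microtubule genes 5 were lower and 2 higher (median 0.11). Of 27 costamere and integrin genes 7 were lower and 2 higher (median -0.14). The LIM proteins Fhl3, Fhl2 and Fhl1 were at -3.43, -2.57 and -1.56, and Itgb1bp2, melusin, at -3.26. Krt18, a keratin, was above background in the denervated soleus only, at least 24.1-fold higher (log2 4.59, normexp 2.05). It is 1 of 12 intermediate filament and lamin genes, of which 3 were higher and 2 lower (median 0.30, or 0.14 under normexp). Of 11 lysine methyltransferases 2 were lower, 1 was higher and the median was -0.37. Mettl21c was at -5.60 ± 0.21 and Smyd1, needed for sarcomere assembly, at -1.79, and Setd7 was higher by 1.19 (normexp 0.93).

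Most genes of protein synthesis and of the lysosome lay within 2-fold. Fbxo32 and Trim63, the ubiquitin ligases of early muscle wasting, were at -0.36 and -0.53. Of 13 kelch, TRIM and F-box adaptors 6 were lower and 0 higher (median -0.53), with Klhl38 at -2.15 and Klhl31 at -2.02 and -2.14. Of 27 lysosomal genes 3 were higher and 0 lower (median 0.34). All 24 ribosome biogenesis genes lay within 2-fold. Of 24 translation factors 1 was higher and 1 lower, the elongation factor pair Eef1a1 (1.1) and its muscle form Eef1a2 (-1.1, and below 2-fold in 4 of 10 other settings). Of 19 endoplasmic reticulum genes 1 was higher and 0 lower. Of 13 polyamine genes 1 was higher, 3 were lower and the median was 0.22. Odc1, the first enzyme, and Smox, spermine oxidase, were at -1.79 and -1.75, and Agmat, agmatinase, was above background in the denervated soleus only, higher by at least 3.15 (normexp 1.09). Sms, spermine synthase, was at 0.59, with 1.46 and 1.68 on its other probes. Among p53 targets Bbc3, an apoptosis inducer, was higher by 1.94, and Cdkn1a gave opposite values on its probes, -1.04 and 5.33.

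Of 20 complement genes 7 were higher, 2 lower and the median was 0.54. Cfd, factor D, was higher by 2.40, Cfb by 2.23 and C3, the central component, by 2.19, from -3.71 in the normal soleus to -1.52 (normexp 1.36). Cfd is also an adipocyte product and stands on both lists. Of 28 cytokine genes 10 were higher and 2 lower (median 0.49), with Ccl21 higher by 1.46 and Il6r, the receptor of interleukin 6, by 1.47. None of 12 macrophage markers reached 2-fold (median 0.49), and the only one of 5 lymphocyte markers to do so, Cd8b, was at -1.25 (normexp -0.89). Of 26 interferon genes 2 were higher and 0 lower (median 0.60).

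Of 24 small proteoglycans and matricellular proteins 10 were higher, 0 lower and the median was 0.88. Comp, of tendon and cartilage, was at 0.36 in the normal soleus, 3.13 in the denervated soleus and 0.99 in plantaris. Fmod, fibromodulin, was at 4.10, 6.21 and 5.46. Fbln1, fibulin, was higher by 2.56 (normexp 1.3) and Postn, periostin, by 1.54. Fibrillar collagens differed less, with 1 of 20 higher, 1 lower and a median of 0.45, and Col1a1 at 0.99. Of 9 basement membrane genes 1 was higher and 0 lower (median 0.33). Of 8 tendon markers 4 were higher and 0 lower (median 1.38), and Comp, Fmod, Kera and Tnmd stand on both lists. The log2 of the summed tendon marker signal was 5.20 in the normal and 6.88 in the denervated soleus. Scx and Tnmd, which define tendon cells, were at 0.93 and 0.87. Fibroblast markers had a median of 0.71 with 0 of 11 at 2-fold, and their log2 summed signal was 7.53 and 8.30. The part of tendon and fibroblast content in the matrix differences was not tested.

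Adipocyte markers were high. Of 9 compared 7 were higher, 1 lower and the median was 2.40, and the log2 of their summed signal was 4.65 in the normal and 6.18 in the denervated soleus. Adipoq, adiponectin, was at -0.76, 2.89 and -0.52 on the normal soleus, denervated soleus and plantaris arrays. Retn, resistin, was at -0.80, 1.88 and -1.02, and Cidec, of large lipid droplets, at -4.66, -1.83 and -4.33 (normexp difference 1.5). The normal muscles were alike for all 3. Lpl, lipoprotein lipase, which muscle fibres also make, was at -1.91. Pparg, Cfd, Lpl and Fabp4 also stand on the receptor, complement or lipid lists, and the part of adipocyte content there was not tested.

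Schwann cell markers split. Of 11 compared 3 were higher, 5 lower and the median was -0.59. Mbp, myelin basic protein, was at 1.01 in the normal soleus, -1.09 in the denervated soleus and 1.44 in plantaris (a difference of -0.37 as the mean over its probes), and Mag at 0.43, -0.91 and 1.67. S100b and Cnp were higher by 2.21 and 2.06, and Ngfr, the receptor of Schwann cells without an axon, by at least 1.80 (normexp 0.39). Among 10 endothelial markers 3 were lower and 0 higher (median -0.48), Cdh5, the cadherin of vessel walls, at -2.30 and Kdr, a VEGF receptor, at -1.39. Of 17 satellite cell genes 2 were higher and 0 lower (median 0.12).

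**Figure D4:**
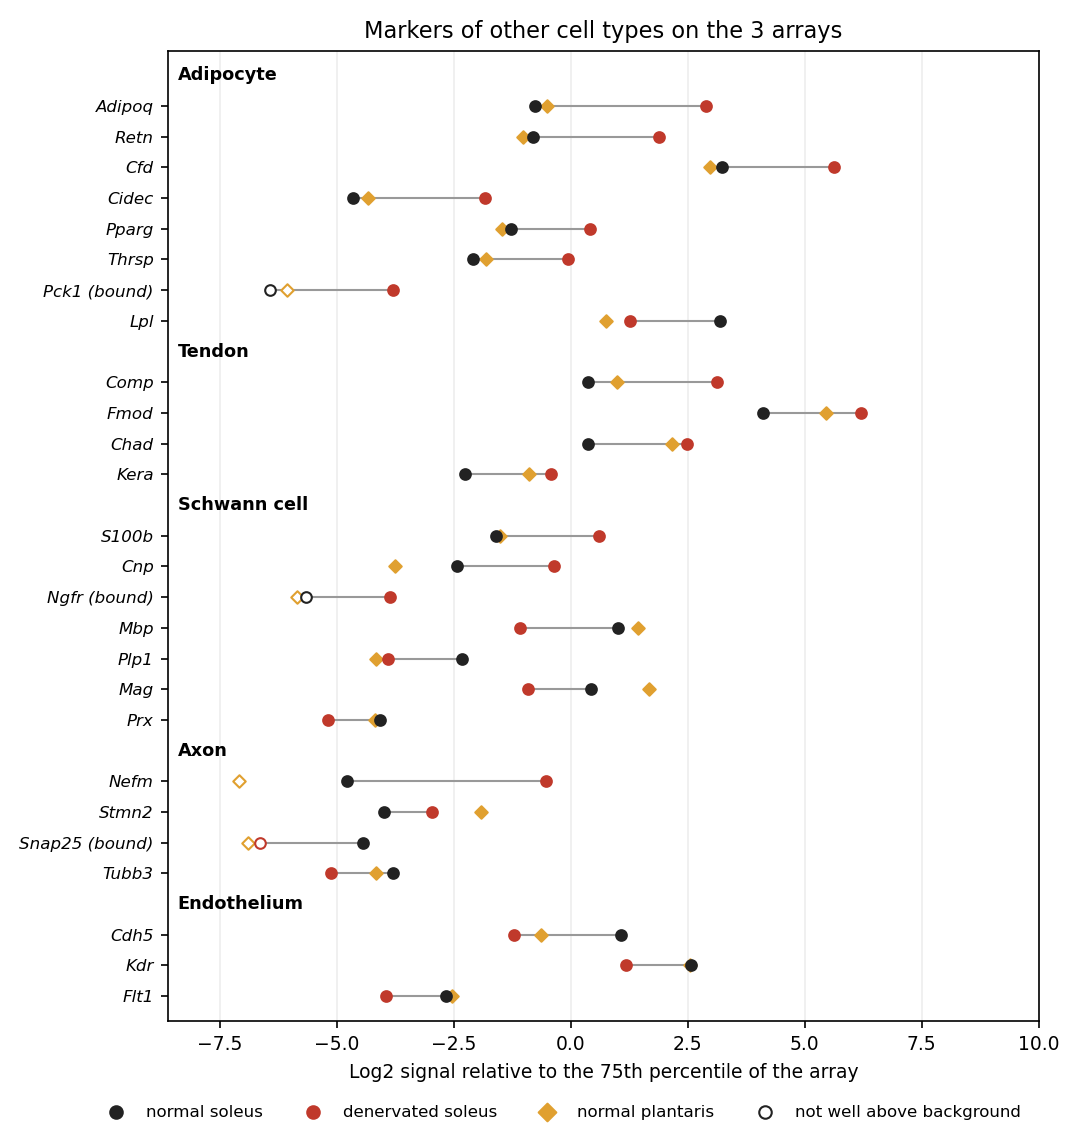
Level of marker genes of adipocytes, tendon, Schwann cells, axons and endothelium on the 3 arrays, as log2 signal relative to the 75th percentile of each array, 1 array per point. Open symbols were not well above background. Adipocyte markers other than Lpl, the tendon markers plotted, S100b and Cnp lie to the right on the denervated array. Mbp, Mag and the endothelial markers plotted lie to the left. The endothelial markers plotted are the 3 of 10 compared that were at least 2-fold lower. The tendon markers plotted are the 4 of 8 compared that were at least 2-fold higher.

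**Figure D5:**
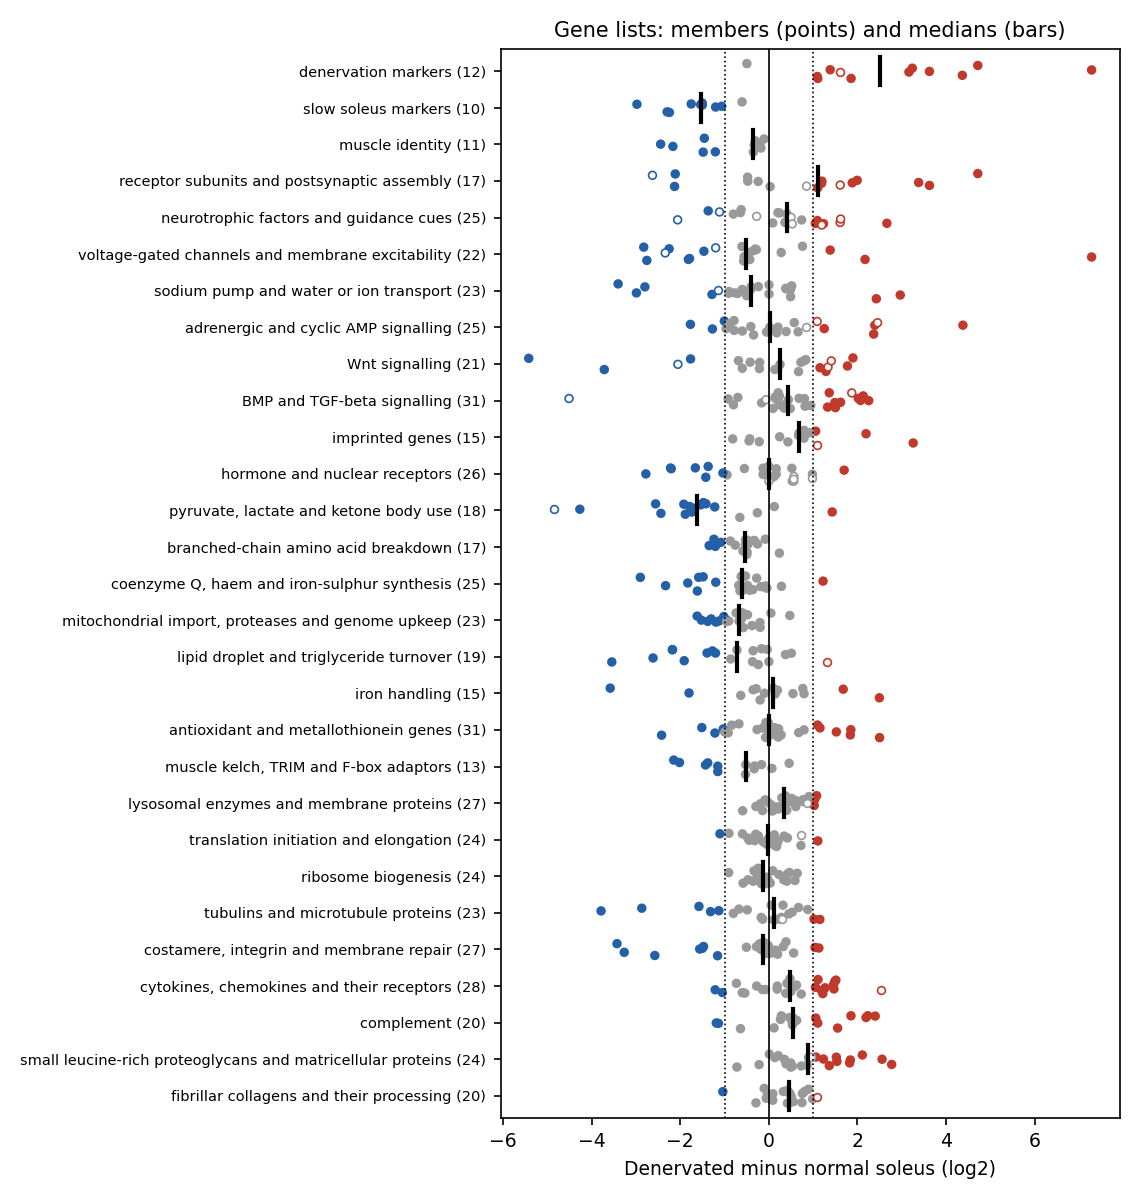
Denervated minus normal soleus (log2) for each member of 29 gene lists, with the number of genes compared in brackets. Filled points were measured on both arrays, open points are bounds, black bars are medians and dotted lines mark 2-fold. The list of pyruvate, lactate and ketone body use has its median at -1.62 and that of denervation markers at 2.51.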

How the data were processed

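Messenger RNA was measured on 3 one-colour arrays, of which the 2 soleus arrays were compared. Per the file headers and the submitters' processing notes, Agilent Feature Extraction 10.10.1.1 produced the intensity values that the authors deposited, background-subtracted and detrended within an array and not scaled between arrays. The authors' deposited value table holds intensity on a linear scale too, equal to the scanner signal times 1.60 (normal soleus), 1.41 (denervated soleus) and 1.80 (plantaris), and what set these factors is unknown. The files also hold deposited flags for spots above background, saturated or outlying.

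The log2 signal of the 58717 non-control spots was centred on each array's 75th percentile, taken over all of these spots. After the centring, 467 to 569 outlier spots per array were left out. A probe was above background if 50 percent or more of its spots were. Of 30367 probes, 18005 had a symbol through their RefSeq accession (15168 genes), and the brightest probe stood for a gene. Genes above background on at least 1 soleus array were compared. A bound uses the larger of the dim array's own signal and its faintest signal above background. At least 2-fold is a rule on size, not a test. The median scanner error of a difference was 0.206, and list medians under it are given no direction.

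Named genes are a fixed set, the 20 largest measured differences and 6 largest bounds per direction, and per list the 8 members farthest from 0 and any at least 2-fold against its median. The text names a part of them, a few genes that the rule takes are not reported here, and any other gene is said to lie outside. The lists, members and rules were chosen with earlier results of these data known. In 10 alternative settings, normexp (limma 3.58.1, R 4.3.3, offset 50) ran on the median spot signal, since the mean signal that had been planned is not among the columns used here, and the spike-in scaling was added after the data were seen. The calculation (Python 3.11.15, pandas 2.3.3) was tested on simulated data. The array design predates GRCr8, so positions are given only for RefSeq promoter windows.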

Additional observations from a re-analysis of the deposited data

Results flagged for a closer look

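Probes that could not be joined to a gene symbol were left out of the comparison. Of 6778 such probes measured on both arrays, 318 (4.69%) were at least 2-fold higher in the denervated soleus and 1274 (18.8%) at least 2-fold lower. Probe A_64_P044801 had a log2 difference of 9.449, from -4.52 in the normal soleus to 4.93, with -4.26 in plantaris. Probe A_64_P162348 had a log2 difference of -5.093. Of 10052 named genes measured on both arrays, 668 (6.65%) were at least 2-fold higher and 1177 (11.7%) lower. The data hold no control level for these shares, and what the probes detect was not determined.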

How the results depend on the processing

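Under normexp the counts were 367 higher and 1001 lower, and in the authors' deposited values 1568 higher and 1107 lower. In the other 8 settings they ran from 668 to 1391 higher and from 1177 to 1893 lower, against 988 and 1518. Genes called in opposite directions numbered 1 with the mean over probes and 0 in each other setting. Of 313 named genes at least 2-fold apart, 207 were so in every setting that gives a value, and 78 were below 2-fold with normexp. Opposite signs were seen for 2: Cxcl12 at 0.787 under quantile normalization (main value -1.21) and Cdkn1a at 2.144 with the mean over probes. Of 54 list medians, 38 exceeded the median error of 0.206, and none of these took the opposite sign in the 10 settings, though that of Wnt signalling was 0.00 under normexp. Among the rest, 11 took the opposite sign in at least 1 setting, 35 values in all, and the limit under which a median is given no direction was set after this was seen. Their medians were at most 0.157 from 0. They are the lists for adrenergic and cyclic AMP signalling (-0.198 to 0.263), antioxidants (-0.019 to 0.237), carbonic anhydrases (-0.245 to 0.086), cholesterol (-0.168 to 0.132), costamere (-0.153 to 0.103), hormone receptors (-0.146 to 0.225), iron (-0.162 to 0.336), purines (-0.094 to 0.224), ribosome biogenesis (-0.175 to 0.117), serine and amino acid stress (-0.218 to 0.069) and translation (-0.025 to 0.253). Apart from the settings' own construction, the cause was not tested. No paired analysis was possible because each group is 1 array, and for the same reason no replicate could be left out. Signal over background limits dim genes, of which 1266 have only a bound.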

Other observations

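Klk1, Klk1c2 and Klk1c8, tissue kallikreins of the kinin system, stood among the 20 largest differences on the high side. Klk1 was at -1.06 in the normal soleus, 3.68 in the denervated soleus and -0.64 in plantaris, Klk1c2 at -2.64, 2.17 and -2.21, and Klk1c8 at -3.19, 1.56 and -2.56. These genes are near-identical copies, so their probes may read 1 transcript and the values are uncertain as to which gene. Sema4a, a semaphorin, was at 7.35, 3.06 and 7.43 on the same arrays, and Kcnj13, a potassium channel, at -0.25, -4.57 and -3.58.

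Metabolic and signalling genes outside the lists also lay far on the low side. Asb18, of a ubiquitin ligase family, was at -5.0, Dhrs11, a dehydrogenase, at -4.02, Ppm1j, a phosphatase, at -4.13, and Slc41a3, a magnesium transporter, at -4.34. Sbk2, a kinase, gave -5.05 and -3.38 on its probes. On the high side, Adap2 was higher by 4.32, Calml3, a calmodulin-like protein, by 4.3 (normexp 2.54) and Rhbdl2, a rhomboid protease, by 4.82 (normexp 3.01).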
